A study of Mus musculus with 9 samples.

Results

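The 9 genes described here are the G1 cyclins Ccnd1, Ccnd2, Ccnd3, Ccne1 and Ccne2, the kinases Cdk2, Cdk4 and Cdk6, and the inhibitor Cdkn1b (p27). They were chosen by name, with earlier results of these data known, and all 9 were present among the 13499 genes of the authors' table. RNA was sequenced from C57BL/6 mouse embryonic stem (ES) cells, pluripotent cells that can be grown in culture. They were kept on gelatine in SR-ES medium with LIF, a cytokine that maintains ES cells. A cytometer separated them by EYFP or by a fusion of GFP to Myc, and which reporter a given sample carried is not stated. The populations are named High, Medium and Low for C-myc, with 3 libraries each, described as biological replicates. The strain, medium and sorting are shared by all 3 populations. The labels do not say whether the replicates came from separate cultures or sorts, so p-values measure only the spread between these libraries.

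Cells leave G1, the interval before DNA replication, when cyclin-dependent kinases phosphorylate the retinoblastoma protein and release E2F transcription factors. D-type cyclins activate Cdk4 and Cdk6, E-type cyclins activate Cdk2, and p27 binds and restrains these complexes. Mouse ES cells are known for a short G1, with high cyclin E and Cdk2 activity through much of the cycle. Myc is a transcription factor that dimerises with Max and binds E-box DNA; CDK4 and CCND2 are textbook Myc targets, and CDKN1B is a gene that Myc is known to oppose.

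The libraries held 11114936 to 16755566 recovered reads each. Values are the authors' normalised counts, which sum to 953055 to 1026948 per library and so lie close to CPM. Myc RNA was 112, 101 and 106 in High libraries, 70.0, 65.5 and 65.8 in Medium libraries and 26.3, 27.6 and 24.2 in Low libraries, which follows the names of the sorted populations and checks the labels. All 9 ES cell markers searched for were measured, and their summed level was 5740.2 to 6524 in High, 5460.8 to 6139.6 in Medium and 4657.4 to 6278 in Low libraries. For High against Low, 4 of the 9 were higher and 0 lower, beside 13.8% higher and 14.6% lower of all genes. The largest passing log2 fold changes were 0.70 for Tdgf1, 0.54 for Esrrb and 0.40 for Klf4. Nanog, Dppa5a and Sox2 had log2 differences of -0.22, -0.090 and -0.070 that did not pass in this fit. With a replicate block (38.8% of all genes) 5 were higher and 1, Nanog, was lower (limma adjusted p = 0.0338). For Medium against Low 3 were higher and 0 lower, beside 6.14% higher and 5.87% lower of all genes. The part of these markers in the changes of the G1 genes was not tested. Libraries differed in how long transcripts stood relative to short ones. The median difference between genes with transcripts of at least 4729 nt and genes with transcripts of at most 2100 nt was 0.25, -0.058 and -0.075 (log2) in High replicates 1 to 3, 0.30, -0.051 and 0.25 in Medium and 0.28, -0.59 and -0.27 in Low. Low replicate 2 thus stood apart from the rest.

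Between High and Low cells, 7 of the 9 genes changed. Cdk6, Ccnd2, Ccnd1, Cdk2 and Ccnd3 were higher in High, and Ccne2 and Cdkn1b were lower; Cdk4 and Ccne1 did not pass. All 7 passed limma at an adjusted p under 0.05, where 28.4% of all genes passed (13.8% higher and 14.6% lower). Each of the 7 had no overlap between its High and Low libraries, which held for 41.6% of all genes (20.2% higher and 21.4% lower). The same number, 7 of 9, passed with edgeR (27.2% of all genes), DESeq2 (28.7%) and a replicate block (38.8%). Because the genes were chosen with earlier results of these data known, the shares are only set beside the counts. The median log2 fold change of the 9 genes was 0.26, against -0.00025 over all genes tested. In bulk RNA, fewer cells of a type and less RNA per cell cannot be told apart.

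**Figure D1:**
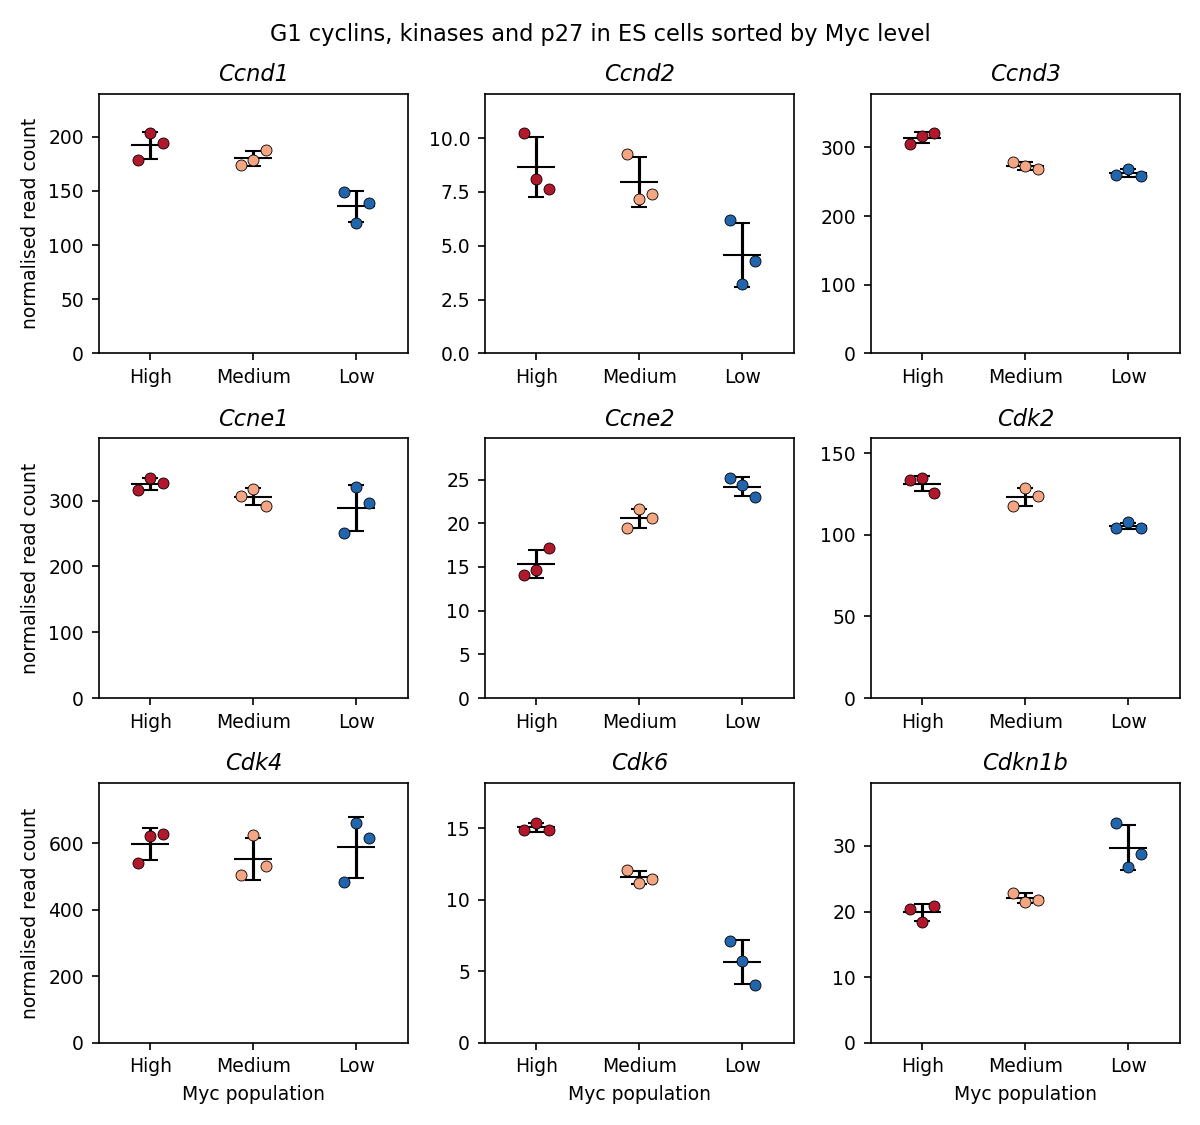
Normalised read count (y axis, from 0) of each of the 9 genes in the High, Medium and Low populations; points are libraries, bars the mean and SD of 3. The High points of Cdk6 lie between 14.9 and 15.4, above the Low points at 4.06 to 7.11, and the Cdk4 points of the 3 populations overlap.

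Among the D-type cyclins, which respond to growth signals, all 3 were higher in High than in Low, and Ccnd1 and Ccnd2 were also higher in Medium than in Low. Ccnd1 (ENSMUSG00000070348, chromosome 7 from 144929931 to 144939925, GRCm38) had 179, 203 and 194 normalised counts in High, 174, 179 and 187 in Medium and 149, 121 and 138 in Low. High and Medium libraries overlapped, and both lay above every Low library. Means were 192 ± 12.4 in High, 180.1 ± 6.78 in Medium and 136 ± 14.3 in Low (SD, n = 3 each). The log2 fold change was 0.50 ± 0.093 (SE) for High against Low (limma adjusted p = 0.00367) and 0.41 for Medium against Low (adjusted p = 0.0231). The Medium against Low call was lost in 7 of 24 alternatives.

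Ccnd2 (ENSMUSG00000000184, chromosome 6 from 127125162 to 127152193) was scarce, with 10.2, 8.09 and 7.64 normalised counts in High, 9.28, 7.19 and 7.41 in Medium and 6.19, 3.22 and 4.29 in Low. These rest on 36 to 155 reads per library. Replicate 1 was the highest library in each population, and all High and Medium libraries were above all Low ones. The ratio of means was 1.89 for High over Low, with a log2 fold change of 0.82 ± 0.20 (SE, limma adjusted p = 0.0124). For Medium against Low the log2 fold change was 0.71 (adjusted p = 0.0439), a call lost in 11 of 24 alternatives. After a correction for transcript length the log2 fold changes were 0.69 for High against Low (limma adjusted p = 0.00165) and 0.52 for Medium against Low (adjusted p = 0.0162). Leaving out High replicate 1 took the High against Low call past the threshold (adjusted p = 0.0510).

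Ccnd3 (ENSMUSG00000034165, chromosome 17 from 47505051 to 47599691) had 305, 317 and 321 normalised counts in High, 279, 272 and 268 in Medium and 260.1, 269 and 259 in Low. Every High library was above every Medium and Low library, while Medium and Low overlapped. The change was small, 1.20-fold between the means of High and Low, with a log2 fold change of 0.26 ± 0.066 (SE, limma adjusted p = 0.0165). Adjusted p was 0.0652, 0.0694 and 0.0720 with High replicate 2, High replicate 3 or Low replicate 3 left out, and 0.0726 with quantile normalization. High against Medium gave a log2 difference of 0.20 that did not pass over all genes (adjusted p = 0.262).

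Measured per kilobase of the longest annotated transcript, Ccnd3 made up 60.7% ± 0.990 of the D-type cyclin level in High, 58.9% ± 1.28 in Medium and 64.8% ± 2.95 in Low (SD, n = 3 each). Ccnd1 made up 38.2% ± 1.13, 40.1% ± 1.39 and 34.5% ± 2.76 in the same order. Ccnd2 supplied 1.02%, 1.05% and 0.683% on average.

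Of the 2 E-type cyclins, which partner Cdk2 at the entry to S phase, Ccne2 was lower in High than in Low and Ccne1 did not pass. Ccne2 (ENSMUSG00000028212, chromosome 4 from 11191351 to 11204779) had 14.1, 14.7 and 17.1 normalised counts in High, 19.5, 21.6 and 20.6 in Medium and 25.2, 24.4 and 23.0 in Low. No 2 populations overlapped. Its ratio of means was 0.633 for High over Low, with a log2 fold change of -0.63 ± 0.099 (SE, limma adjusted p = 0.0015). The steps gave -0.40 for High against Medium (adjusted p = 0.126) and -0.23 for Medium against Low (adjusted p = 0.155), and neither passed. After a correction for transcript length the High against Medium step passed (log2 fold change of -0.41, adjusted p = 0.0472).

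Ccne1 (ENSMUSG00000002068, chromosome 7 from 38097984 to 38107534) was far more abundant, with 316, 335 and 326 normalised counts in High, 307, 318 and 292 in Medium and 251, 320.3 and 296 in Low. High overlapped Low through Low replicate 2, and Medium through Medium replicate 2. The log2 difference of High against Low was 0.18 ± 0.095 (SE), with a 95% interval from -0.034 to 0.39, and it did not pass (limma adjusted p = 0.189). The transcript length correction gave 0.26 and passed (adjusted p = 0.00288). Ccne1 held 97.0% ± 0.300 of the cyclin E level per kilobase in High, 95.7% ± 0.224 in Medium and 94.7% ± 0.804 in Low (SD, n = 3 each).

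Of the 3 kinases, Cdk6 had the largest change among the 9 genes, Cdk2 a small one and Cdk4 none that passed. The RefSeq promoter sequences of the kinases on GRCm38.p6 are shown for the letters they hold: E-boxes, the motif that Myc is known to bind, in 2 of them and an E2F motif in the third. Each run is the 250 bases before the annotated start, on the gene's strand, and capitals mark the E-box CACGTG in Cdk4 and Cdk6 and the E2F motif TTTCCCGC, read on the other strand as GCGGGAAA, in Cdk2.
Cdk4, chr10:127063285-127063534, plus strand: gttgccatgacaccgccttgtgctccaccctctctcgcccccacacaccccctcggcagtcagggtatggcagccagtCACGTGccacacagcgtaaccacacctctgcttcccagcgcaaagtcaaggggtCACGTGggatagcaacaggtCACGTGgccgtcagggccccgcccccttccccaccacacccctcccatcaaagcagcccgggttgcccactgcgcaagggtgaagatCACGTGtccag
Cdk6, chr5:3343643-3343892, plus strand: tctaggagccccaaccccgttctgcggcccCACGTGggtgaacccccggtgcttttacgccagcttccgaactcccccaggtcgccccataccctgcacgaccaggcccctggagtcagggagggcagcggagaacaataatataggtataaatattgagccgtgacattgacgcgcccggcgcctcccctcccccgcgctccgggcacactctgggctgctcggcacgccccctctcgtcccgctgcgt
Cdk2, chr10:128705052-128705301, minus strand: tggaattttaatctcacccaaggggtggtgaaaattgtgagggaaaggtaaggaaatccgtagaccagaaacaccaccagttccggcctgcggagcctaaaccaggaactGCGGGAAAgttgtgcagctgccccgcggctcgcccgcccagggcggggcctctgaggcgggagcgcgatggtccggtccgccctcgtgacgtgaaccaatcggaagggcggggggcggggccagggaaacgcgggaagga

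The Cdk4 window holds 4 E-boxes, whose first bases lie 172, 118, 98 and 11 bases before the start, and the Cdk6 window holds 1, at 220 bases. Of 32851 RefSeq windows of the same length, 6.02% hold at least 1 E-box and 7 windows (0.0213%) hold 4 or more. The E2F motif of Cdk2 lies 140 bases before the start, and 0.895% of windows hold it. A second E2F motif, TTTGGCGC, was found in none of the members' windows and in 0.417% of all windows. The Forkhead motif TGTTTAC, searched on both strands, was found in 1 of the 2 Ccnd3 windows and in 3.17% of all windows. The Ccne1 and Cdkn1b windows held none of the 4 motifs. These matches are descriptions of letters, and 6 of the 9 genes had an entry; Ccnd1, Ccnd2 and Ccne2 are named only.

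Cdk6 (ENSMUSG00000040274, chromosome 5 from 3341485 to 3531008), whose promoter holds 1 E-box, had 14.9, 15.4 and 14.9 normalised counts in High, 12.1, 11.1 and 11.4 in Medium and 7.11, 5.72 and 4.06 in Low. No 2 populations overlapped, and the High libraries were close together. The ratio of means was 2.67 for High over Low and 2.05 for Medium over Low. On the log2 scale with the pseudocount, which understates the change of low genes, the fold change was 1.30 ± 0.16 (SE, limma adjusted p = 0.000312), with a 95% interval from 0.96 to 1.65. Medium against Low gave 0.95 (adjusted p = 0.00601), and High against Medium gave 0.36 without passing (adjusted p = 0.443). Its longest transcript has 11525 nt. After the length correction the log2 fold change was 0.95 for High against Low (adjusted p = 0.00131). For Medium against Low it fell to 0.52 (adjusted p = 0.0465).

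Cdk4 (ENSMUSG00000006728, chromosome 10 from 127063534 to 127067920), whose promoter holds 4 E-boxes, was the most abundant of the 9 genes. It had 541, 621 and 629 normalised counts in High, 503, 623 and 530.3 in Medium and 485, 661 and 614 in Low. The 3 populations overlapped, and replicate 1 was the lowest library in each. The log2 difference of High against Low was 0.034 ± 0.13 (SE, limma adjusted p = 0.877), with a 95% interval from -0.26 to 0.33, so changes between 0.835-fold and 1.26-fold were not separated from none. The sign turned without Low replicate 1 (-0.098) or High replicate 3 (-0.0048). After the length correction the log2 difference was 0.12 and did not pass (limma adjusted p = 0.242, or 0.0860 with the replicate block added).

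Cdk2 (ENSMUSG00000025358, chromosome 10 from 128697939 to 128705031) had 133, 135 and 126 normalised counts in High, 118, 128 and 124 in Medium and 104, 108 and 104 in Low. All High and Medium libraries were above all Low libraries, while High and Medium overlapped. Its ratio of means was 1.25 for High over Low, with a log2 fold change of 0.31 ± 0.070 (SE, limma adjusted p = 0.00897). With quantile normalization the change was 0.22 and just missed the threshold (adjusted p = 0.0512). Medium against Low gave 0.22 (adjusted p = 0.0661).

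The inhibitor Cdkn1b (ENSMUSG00000003031, chromosome 6 from 134920401 to 134925513) ran opposite to most of the kinases and D-type cyclins. It had 20.3, 18.4 and 20.9 normalised counts in High, 22.9, 21.4 and 21.8 in Medium and 33.6, 26.8 and 28.8 in Low. No 2 populations overlapped, although High and Medium were close. Means were 19.9 ± 1.32 in High, 22.0 ± 0.752 in Medium and 29.7 ± 3.46 in Low (SD, n = 3 each). The log2 fold change was -0.55 ± 0.10 (SE) for High against Low (limma adjusted p = 0.00364) and -0.41 for Medium against Low (adjusted p = 0.0323). The Medium against Low call was lost in 6 of 24 alternatives.

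**Figure D2:**
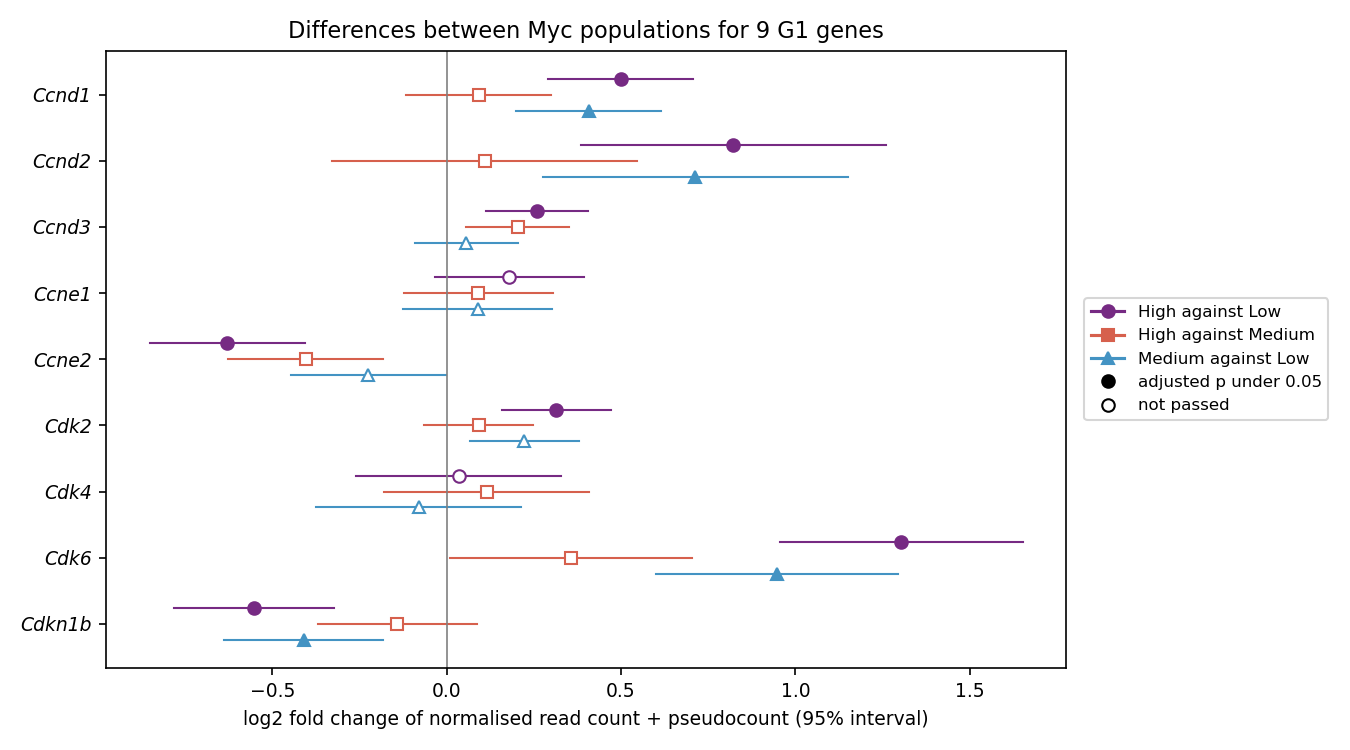
Log2 fold change (x axis) of each gene for High against Low (circles), High against Medium (squares) and Medium against Low (triangles); lines are 95% intervals from limma, and filled symbols passed an adjusted p under 0.05. For High against Low 7 of the 9 symbols are filled, for Medium against Low 4, and for High against Medium 0.

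For Medium against Low, 4 of the 9 genes changed, Ccnd1, Ccnd2 and Cdk6 being higher in Medium and Cdkn1b lower. Over all genes 12% passed (6.14% higher and 5.87% lower). Of the 9 genes 6 had no overlap between Medium and Low libraries, the 4 above with Cdk2 (higher) and Ccne2 (lower), against 29.6% of all genes (14.5% higher and 15.1% lower). With edgeR 3 genes passed (11% of all genes), with DESeq2 5 (14.9%) and with the replicate block 5 (27.1%). Of the 4 calls only that for Cdk6 held in a fit of the Medium and Low libraries alone (adjusted p = 0.0315). Without Low replicate 3, or without any 1 of the Medium replicates, 1 call remained. Without Low replicate 2 or without High replicate 3, 2 remained.

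For High against Medium, 0 of the 9 genes passed with limma, edgeR or DESeq2, and 3 (Ccnd3, Ccne2 and Cdk6) had an unadjusted limma p under 0.05, as did 1468 of all 13499 genes (10.9%). Over all genes 0.407% passed (0.0815% higher and 0.326% lower), with 0.467% for edgeR, 1.93% for DESeq2 and 1.5% with the replicate block, where 0 of the 9 passed too. Libraries did not overlap for 4 of the 9 genes, with Ccnd3 and Cdk6 higher and Ccne2 and Cdkn1b lower in High, against 20.1% of all genes (9.34% higher and 10.8% lower). Whether Medium lay off the midpoint of High and Low was tested directly. For this contrast 0 of 9 genes passed with limma (0% of all genes), edgeR (0%), DESeq2 (0.126%) or the replicate block (0.00741%), and 0 had an unadjusted p under 0.05, as did 766 of 13499 genes (5.67%), a share too low to read anything from 0 of 9. The comparisons share libraries, so their values are given side by side only.

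Compared per kilobase of the longest transcript over all 9 libraries, the genes spanned more than 2 orders of magnitude. Cdk4 had a mean level of 282 normalised counts per kb, Ccne1 153, Ccnd3 73.4, Ccnd1 45.3 and Cdk2 36.8. Ccne2 followed at 6.66, Cdkn1b at 5.25, Ccnd2 at 1.12 and Cdk6 at 0.932. Neighbours in this order whose ranges over the libraries overlapped were Ccnd1 and Cdk2, Ccne2 and Cdkn1b, and Ccnd2 and Cdk6. Cdk4 stood at the 98.3rd percentile of all genes with an annotated length and Cdk6 at the 14.3rd. Per kilobase of coding sequence, Ccnd3 (323) was above Ccne1 (251), Cdkn1b (40.4) above Ccne2 (16.5) and Cdk6 (11.0) above Ccnd2 (8.14). Cdk6 supplied 0.449% of the summed Cdk4 and Cdk6 level per kb of the longest transcript in High, 0.375% in Medium and 0.177% in Low.

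**Figure D3:**
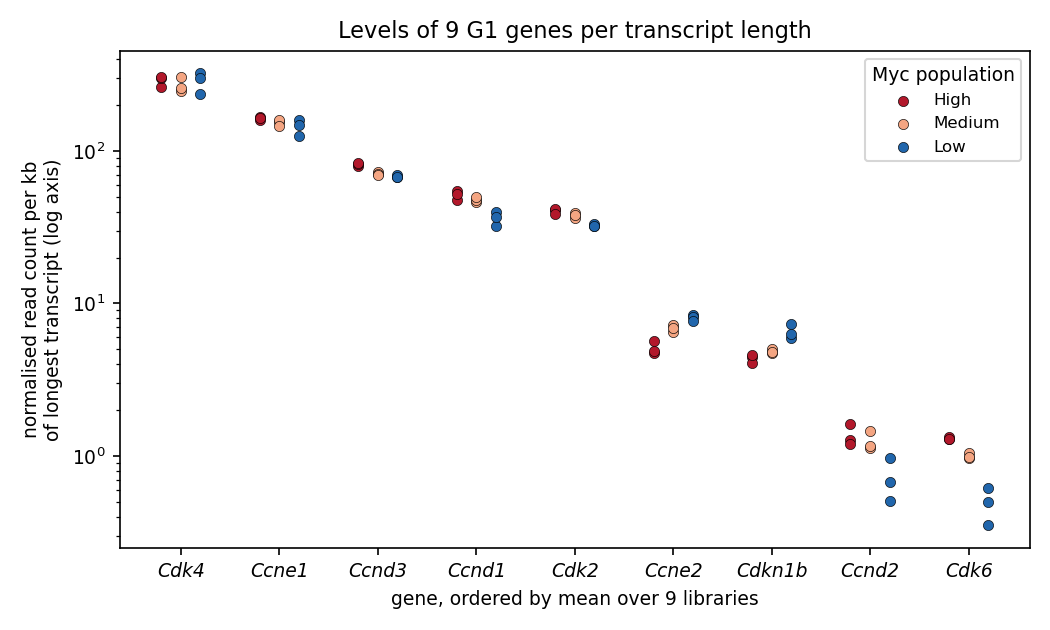
Normalised read count per kilobase of the longest annotated transcript (log axis) for the 9 genes, ordered by their mean over 9 libraries; points are libraries, coloured by population. Cdk4 lies near 282 and Cdk6 near 0.932, and the Low points of Cdk6 and Ccnd2 fall below the High ones.

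Some of these genes share exon bases with a neighbour on the other strand, and the use of strand in counting is not given in the sources used here, so reads of the overlap cannot be assigned. Ccne2 shares 609 exon bases with Ints8, an Integrator subunit gene that was more abundant (66.8 ± 4.33 in High and 65.5 ± 6.08 in Low) and did not pass (log2 difference of 0.030, limma adjusted p = 0.849). Cdk4 shares 641 with Tspan31, Ccnd1 1100 with Oraov1 and Ccnd3 361 with Bysl; none of the 3 passed for High against Low (adjusted p = 0.434, 0.275 and 0.0718). Cdk2 shares 34 with Pmel, which rose by 0.78 (adjusted p = 0.000259). Annotated antisense genes share 372 (Gm43126) and 368 (9330179D12Rik) exon bases with Ccnd2 and 368 (Gm17590) with Cdk6. These antisense genes were not among the 13499 genes. Ccnd3 also has an annotated processed pseudogene on chromosome 4.

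Around these genes, most measured inhibitors were lower in High, and no gene for kinase activation passed. Of 44 measured genes in 6 lists, 18 passed for High against Low (40.9%, beside 28.4% over all genes), 8 higher and 10 lower, with a median log2 fold change of -0.069. Myc, for which the sorted populations are named, is among the 18. Of 5 measured CDK inhibitors besides p27, 3 were lower in High, 0 higher and 2 did not pass, with a list median of -0.48. Cdkn1a (p21), a p53 target, had 18.8, 21.8 and 23.8 normalised counts in High, 22.6, 30.4 and 27.2 in Medium and 41.8, 47.9 and 50.7 in Low. High and Low libraries did not overlap, and the log2 fold change was -1.09 (limma adjusted p = 0.000346). Cdkn2a, which encodes p16 and p19ARF, fell by 0.76 at a low level (3.69 ± 0.424 in High and 7.03 ± 1.39 in Low; SD, n = 3 each), and Cdkn1c (p57) fell by 0.48. Cdkn1c missed the threshold when High replicate 1 (adjusted p = 0.0659) or Low replicate 3 (0.0747) was left out.

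Among the 3 pocket proteins, which hold E2F factors in check, 1 was lower and 2 did not pass (list median 0.16). Rb1, the retinoblastoma gene and the main substrate of cyclin D kinases, had 7.86, 8.36 and 9.74 normalised counts in High, 9.94, 11.6 and 12.7 in Medium and 21.3, 22.0 and 23.3 in Low. Every Low library was above every other, and the log2 fold change of High against Low was -1.27 ± 0.12 (SE, limma adjusted p = 8.1e-05). For Rbl1 and Rbl2, which encode p107 and p130, the log2 differences were 0.22 and 0.16 (adjusted p = 0.225 and 0.479).

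Of 10 E2F and DP factors 2 were higher, 2 lower and 6 did not pass, with a median of -0.080. The activator E2f2 rose by 0.72 (17.1 ± 2.17 in High and 9.94 ± 0.439 in Low), E2f4, which acts with pocket proteins, by 0.27, while E2f5 and the repressor E2f6 fell by 0.63 and 0.57. The E2f4 call was lost without High replicate 2 (adjusted p = 0.106), High replicate 3 (0.109), Medium replicate 3 (0.0525) or Low replicate 3 (0.0825), with quantile normalization (0.179), without the variance trend (0.0527) and in the fit of High and Low alone (0.0613). Of 7 genes for kinase activation, among them Cdk7, Ccnh and Mnat1 of the CDK-activating kinase and the S phase cyclin Ccna2, 0 passed for High against Low with limma or with the replicate block. Their median was -0.0050.

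Of 12 genes for the turnover of cyclins and p27, 3 were higher, 2 lower and 7 did not pass (median -0.069); with the replicate block the counts were 4 and 3. The deubiquitinase gene Usp28 rose by 0.77, Ambra1, an adaptor for the ligase of D-type cyclins, by 0.64 and Fzr1, an activator of the anaphase-promoting complex, by 0.36. Skp1a, a core subunit of SCF ligases, fell by 0.47 and Fbxo5, an inhibitor of the anaphase-promoting complex, by 0.29. Skp2, the F-box protein gene for p27, did not pass (log2 difference of -0.035, limma adjusted p = 0.804). Ambra1 missed the threshold when High replicate 1 (adjusted p = 0.0542) or Low replicate 3 (0.0578) was left out. The call for Fbxo5 was lost in the fit of High and Low alone (0.0550) and without any 1 High replicate, Low replicate 2 or Low replicate 3, with adjusted p from 0.0579 to 0.0858.

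Of 7 regulators of these genes 3 were higher and 2 lower (median 0.22), Myc itself included. Akt1, a kinase that phosphorylates p27 and Forkhead factors, had 32.3, 34.4 and 29.4 normalised counts in High, 47.2, 46.9 and 41.0 in Medium and 68.8, 58.6 and 62.4 in Low. No 2 populations overlapped, and the log2 fold change of High against Low was -0.96 (limma adjusted p = 0.000133). The Forkhead gene Foxo4 rose by 0.46 and Zbtb17, which encodes the Myc partner Miz1, by 0.40; the Zbtb17 call was lost without High replicate 3 (adjusted p = 0.0533). Mycn fell by 0.22 (adjusted p = 0.0393), a call lost in 9 of 24 alternatives. Foxo1 and Foxo3 did not pass (adjusted p = 0.307 and 0.449).

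**Figure D4:**
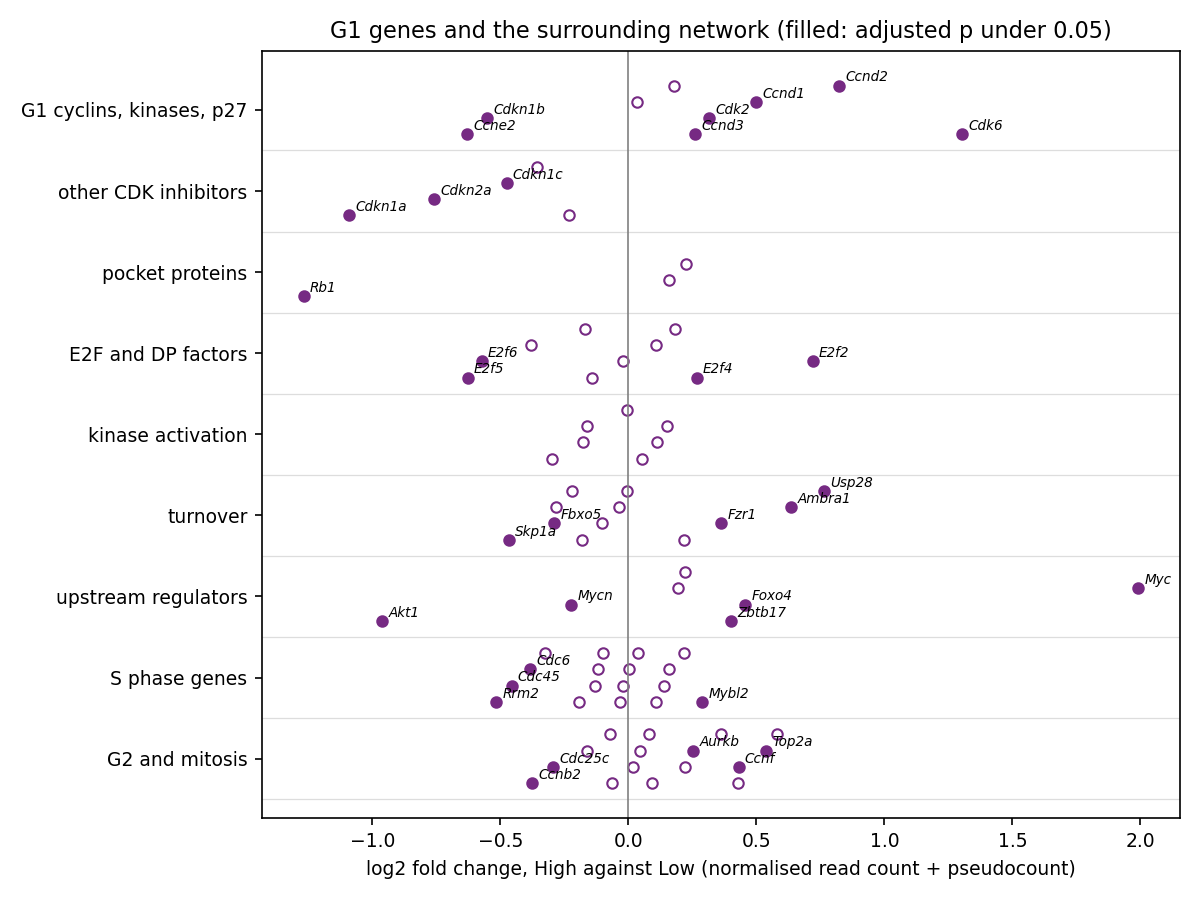
Log2 fold change of High against Low (x axis) for the 9 G1 genes and for lists of genes around them, 1 row per list; filled and named points passed an adjusted p under 0.05. The inhibitors lie at or below -0.23, Rb1 is at -1.27, and no point of the kinase activation row is filled.

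For genes of later phases, counts are given beside the 28.4% of all genes that passed, or 38.8% with the replicate block. Of 17 S phase genes 1 was higher and 3 lower, with a median of -0.032; with the block 1 was higher and 4 lower. Rrm2, a ribonucleotide reductase subunit, fell by 0.52, and the replication factors Cdc45 and Cdc6 fell by 0.46 and 0.38. Of 16 genes of G2 and mitosis 3 were higher and 2 lower, with a median of 0.088; with the block 6 were higher and 2 lower. Top2a, Ccnf and Ccnb2 had the largest changes, at 0.54, 0.43 and -0.38. The summed level of the S phase list was 4973.2 to 5154.8 in High, 5125.2 to 5221.8 in Medium and 5029.1 to 5221.2 in Low, and that of the G2 and mitosis list 3130.5 to 3312, 2899.8 to 3188.5 and 2756.6 to 2904.5. Top2a had the highest level in the G2 and mitosis list and weighed most in its sum, with means of 758, 716 and 531 in the same order. Its Low libraries spread widely, at 682, 410 and 500.

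Markers of another lineage moved with the same comparison. Over all genes 13.8% were higher and 14.6% lower for High against Low, and these shares stand beside each count in this paragraph. Of 9 measured trophoblast markers 8 were lower in High, with log2 fold changes of -3.51 for Rhox9, -3.23 for Rhox6 and -2.39 for Krt7. For the list the median was -1.29. The summed level was 136.5 to 145.4 in High, 226.6 to 247.4 in Medium and 482 to 589.7 in Low. A few genes made up most of it: Tfap2c had means of 95.3, 140 and 215 in the same order, Rhox6 12.7, 36.3 and 128, and Rhox9 9.56, 27.9 and 120. Eomes did not pass (limma adjusted p = 0.410). Cdx2, Elf5 and Hand1 were searched for and were not among the 13499 genes. Of 4 measured primitive endoderm markers 3 were higher and 1 lower. Their summed level was 492 to 510.2 in High, 396 to 412 in Medium and 246 to 255 in Low. Most of this sum was Sparc, with means of 428, 343 and 221 in the same order. Gata6, Gata4, Sox17, Foxa2 and Pdgfra were searched for and were not among the 13499 genes. Of 6 fibroblast markers 1 was higher (summed level 28.4 to 41.4 in High and 24.1 to 39.8 in Low), and of 5 neural markers 2 were higher and 1 lower (115 to 119 and 115 to 122). Every gene that the authors kept had reached 1 CPM in at least 3 libraries, so no measured marker could have a mean of 0. Whether the marker RNA came from cells of other lineages or from ES cells was not tested. The part of any such cells, and of the length trend beyond the correction given, in the changes of the G1 genes was not tested.

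Cdk6, the gene with the largest change, was also compared with 13413 other named genes by the root mean square difference of mean-centred log2 values over the 9 libraries. The closest was Kifc3, a kinesin gene, at 0.0968 (20.8 in High, 15.5 in Medium and 8.37 in Low). Nlrp4f followed at 0.119, Slc52a3 at 0.138, Tktl2 at 0.143 and Ppargc1b at 0.146.

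**Figure D5:**
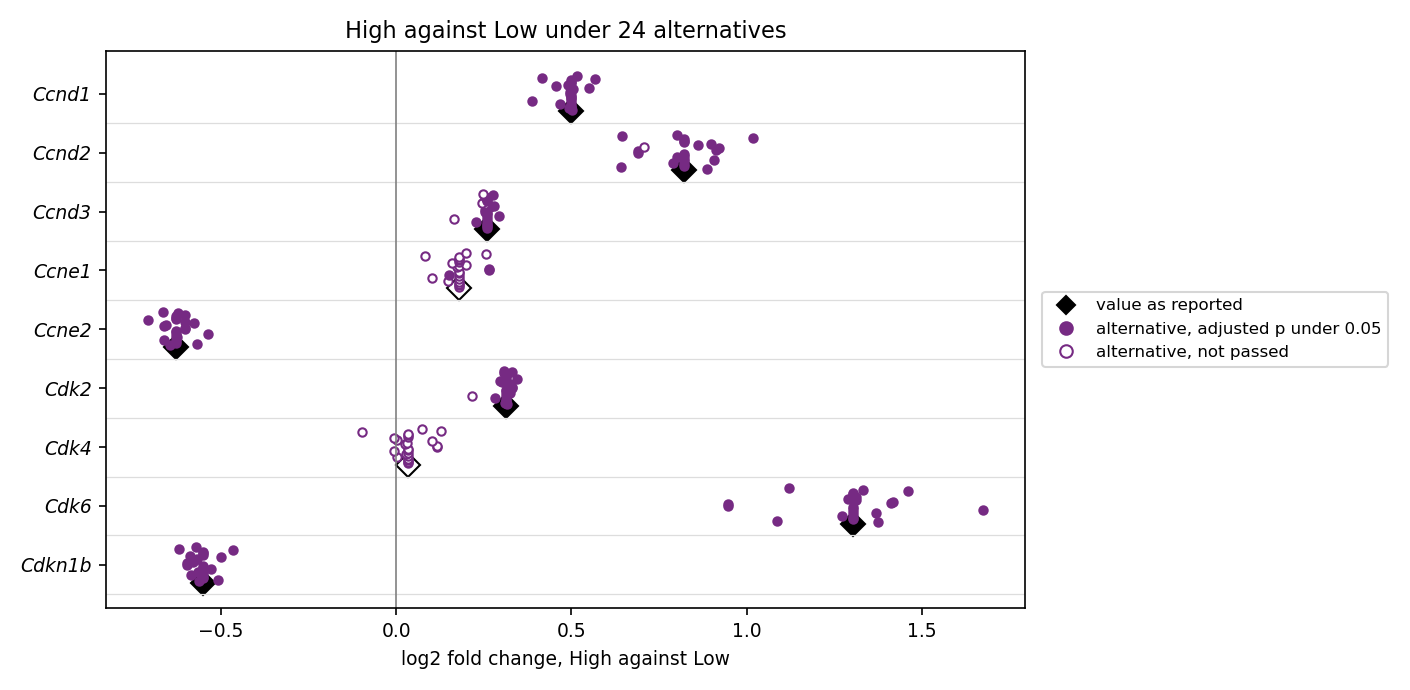
Log2 fold change of High against Low (x axis) for each gene as reported (diamonds) and under 24 alternatives (circles), filled where the adjusted p was under 0.05. Cdk6 ranges from 0.95 to 1.67, Cdkn1b from -0.62 to -0.46 and Cdk4 from -0.098 to 0.13.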

How the data were processed

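Per the labels' protocols, single-end reads of 61 nt were made. Tools named in the submitters' processing notes are RSEM 1.17, Picard, cutadapt and limma; their roles, build, annotation and strandedness were not given in the sources used here. A table of normalised counts (a signal close to CPM) for 13499 genes was deposited by the authors, with column totals from 953055 to 1026948. Each value was a whole multiple of its library's step within 0.001, for 100% of values, which gave whole reads.

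Differences were tested in R 4.3.3 (limma 3.58.1, trended variance) on log2(value + 1 CPM of the column total), all 9 libraries, population as the only term, and Benjamini-Hochberg adjustment over all genes at 0.05. Genes needed 1 CPM in at least 3 libraries, which all met. Lists are described by counts. 85 genes without a name (1.71% to 2.53% of signal) stayed in. Members, lists and tests were chosen with earlier results of these data known. Named genes were all members, pathway genes that passed for High against Low, and Myc, Cdkn1a and Rb1, at most the 3 largest passing changes of an S phase, G2 or cell type list, and the 5 genes closest in pattern to the member with the largest change; further genes were named after their values were seen. Lengths and coordinates came from GENCODE M21 (GRCm38), matched by identifier for 13418 genes.

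Same-numbered High and Low libraries deviated together (correlations of 0.527, 0.257 and 0.179, each over 0.1), so a fit with a replicate block was added. The labels do not state pairing, and High replicate 3 also correlated with Low replicate 2 (0.309). The block used the replicate number as a term over all 9 libraries, Medium included. For High and Medium (0.349, 0.166 and -0.044) and Medium and Low (0.245, 0.432 and -0.112) the numbers did not pair. Block counts for these comparisons therefore rest on a pairing that the correlations did not show. Scripts were tested on simulated data. Alternatives included edgeR 4.0.16 and DESeq2 1.42.0 on recovered reads.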

Additional observations from a re-analysis of the deposited data

How the results depend on the processing

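All 24 alternatives kept the direction of the 7 calls for High against Low. In some of them the fold change could not move, so its direction was fixed in advance. These were the changed filters, the fit without the variance trend, the fit of High and Low alone, the replicate block without length correction and the fits without a Medium library. The fit without a filter on low values repeated the reported fit, because all genes met the filter, so it could not change a call either. Ccnd1, Ccne2, Cdk6 and Cdkn1b kept the call in each of the 24 alternatives, and the count of changed G1 genes ran from 5 to 8. With the replicate block it was 7 for High against Low, 0 for High against Medium and 5 for Medium against Low, where Cdk2 passed as well. Over all genes, High against Low gave 2266 to 5757 genes when 1 library was left out, 6021 with length correction and block and 9129 with sample weights, against 3832. High against Medium gave 55 genes, 11 to 208 with 1 library left out, 84 without the variance trend, 170 in the fit of these populations alone, 203 with the replicate block, 308 with the length correction, 505 with both, 260 with DESeq2 and 1080 with weights. Medium against Low gave 1621 genes, 497 to 5060 with 1 library left out, 656 in the fit of these populations alone, 3656 with the block, 2742 with the length correction, 3831 with both and 8784 with weights. Estimation of the weights stopped before convergence. With weights 38 pathway genes passed for High against Low (18 as reported, 13 to 24 with 1 library left out), 2 G1 genes for High against Medium, 7 for Medium against Low and 3 for the departure of Medium. The length correction, with or without the block, gave 1 G1 gene (Ccne2) for High against Medium. For Medium against Low the count of 4 became 1 in the fit of these populations alone and 1 to 5 with 1 library left out. Signs turned for values that had not passed. Cdk4 became -0.0063 with weights for High against Low, and 0.037 with the length correction, with or without the block, for Medium against Low; Ccnd3 became -0.025 with quantile normalization for Medium against Low. With 1 library left out, Cdk4 ran from -0.098 to 0.13 for High against Low and from -0.21 to 0.012 for Medium against Low, Ccne1 from -0.0096 to 0.17 for Medium against Low and Ccnd2 from -0.0047 to 0.21 for High against Medium. The cause was not tested. Ccnd2 and Cdk6, at 36 to 225 reads per library, are the G1 genes that depth limits most.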
